A study of Mus musculus with 8 samples.

Results

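Postnatal maturation of control cardiomyocytes was followed from 1 to 3 weeks of age by comparing 2 control libraries at 3 weeks (3w) with 2 control libraries at 1 week (1w), 4 of the 8 libraries of the series. The comparison was made across every gene that passed a filter on low counts, which left 14665 of 54752 genes. All mice carried the floxed allele Carm1fl/fl. Carm1 is an arginine methyltransferase that modifies histones and other proteins, and the study asked how it bears on cardiac maturation. Control mice had been injected with AAV-GFP, a viral vector that carries a green fluorescent protein in place of the recombinase. The other 4 libraries, called KO below, came from Carm1fl/fl mice given AAV-CRE, whose recombinase removes the floxed segment, also at 1w and 3w. Per the labels' protocols the vectors were of the AAV9 type and the hearts were mosaic, so that infected cells lay among uninfected ones. Cardiomyocytes were released with a Langendorff system, which perfuses the heart through the aorta. Injection was labelled as postnatal day 1 and day 2 for the replicates at 1w and day 3 and day 4 for those at 3w, in control and KO alike, so that, as labelled, injection day and age cannot be told apart. The days run in order over the samples of each arm, and whether they were entered correctly could not be checked. The labels do not say that the replicates came from separate animals, so the p-values reflect differences among these libraries alone and could be technical in part.

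After birth, cardiomyocytes of the mouse leave the cell cycle, exchange fetal for adult isoforms of contractile proteins, build T-tubules and calcium release units, and turn from glucose towards fatty acids as the main fuel while their mitochondria multiply. Thyroid hormone, nuclear receptors of the ERR and PPAR families and the coactivator PGC-1 are known drivers of these changes. Cells of the neonatal heart also lay down a matrix rich in fibrillar collagens and fibronectin, much of which is made by fibroblasts.

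The 2 libraries at 1w held 20818285 and 31702513 counts and those at 3w 53671626 and 37293627. The replicates lay close together, with a common coefficient of variation of 3.03% over the 8 libraries, a value that sets how small a change could pass the test. Pairs of controls differed more than pairs of KO libraries. The chi-square per gene between replicates, which grows with depth, was 3.133 at 1w and 6.945 at 3w in control, against 1.451 and 1.682 in KO. The shared spread may thus be too small for the controls, and with it the standard errors and p-values below. A fit of the 4 control libraries alone called 5038 genes higher and 4981 lower at 3w. Levels are given as CPM, counts relative to a library size scaled by TMM, a factor that takes most genes as unchanged; 42.9% and 42.1% of the counts at 1w and 46.8% and 47.8% at 3w were mitochondrially encoded. Of 12 cardiomyocyte markers, 10 passed the count filter and all 10 rose with TMM scaling. Their summed level was 49760 and 50195 CPM at 1w, then 99512 and 103830 at 3w. The TMM factors were 1.145 and 1.155 at 1w and 0.7817 and 0.7591 at 3w, which widens the rise of this sum. With libraries scaled by their totals alone, Myh7 (-0.44 log2 units) and Myl2 (-0.47) of these markers were lower at 3w. Carm1 itself had 40.5 and 39.1 CPM at 1w, then 39.9 and 39.3 at 3w, and its change did not pass the test (-0.0039 log2 units, adjusted p = 0.95). Y-linked genes separated the libraries. In control their summed counts were 1 and 0 at 1w but 6765 and 4814 at 3w. In KO they were 5025 and 4282 at 1w but 3 and 2 at 3w. Age and the presence of Y-linked transcripts therefore cannot be told apart within the controls. The labels used here do not give the sex of the mice, and whether the pattern reflects sex or an exchange of labels was not tested. The change with age averaged over control and KO is balanced for them. As a check of the labels, Carm1 had 22.2 and 22.4 CPM at 1w, then 17.3 and 17.8 at 3w in the KO libraries, below every control library at both ages. Of 1267 protein-coding genes whose whole span lies inside another gene, 1265 were listed at 0 in all 8 libraries, against 19.5% of the 20654 others. Among the genes so listed, and without values here, are cardiac actin (Actc1), skeletal actin (Acta1), troponin C (Tnnc1), phospholamban (Pln), muscle carnitine palmitoyltransferase (Cpt1b) and Xist.

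At an adjusted p under 0.05 (edgeR's quasi-likelihood test, Benjamini-Hochberg over the genes tested), 10388 of 14665 genes changed between 1w and 3w, which is 70.8%. Of these, 5114 were higher at 3w (34.9% of the genes tested) and 5274 were lower (36.0%). Changes of at least 2-fold were counted for 1411 genes that rose (9.62%) and 2551 that fell (17.4%), so that large falls outnumbered large rises. The difference was wider for changes of at least 8-fold, with 156 genes higher and 388 lower. The median log2 fold change of all genes was -0.03. When libraries were scaled by their totals alone, without TMM, the median moved by -0.576, and 1917 genes were called higher and 9645 lower, or 16.6% of calls higher in place of 49.2%; where that scaling turns the direction of a gene or list named below, or moves the share of a list's calls that rose by over 10 percentage points, its value or counts stand beside the main ones. The 3w values lay above both 1w values in 40.4% of the genes tested and below both in 42.9%.

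**Figure D1:**
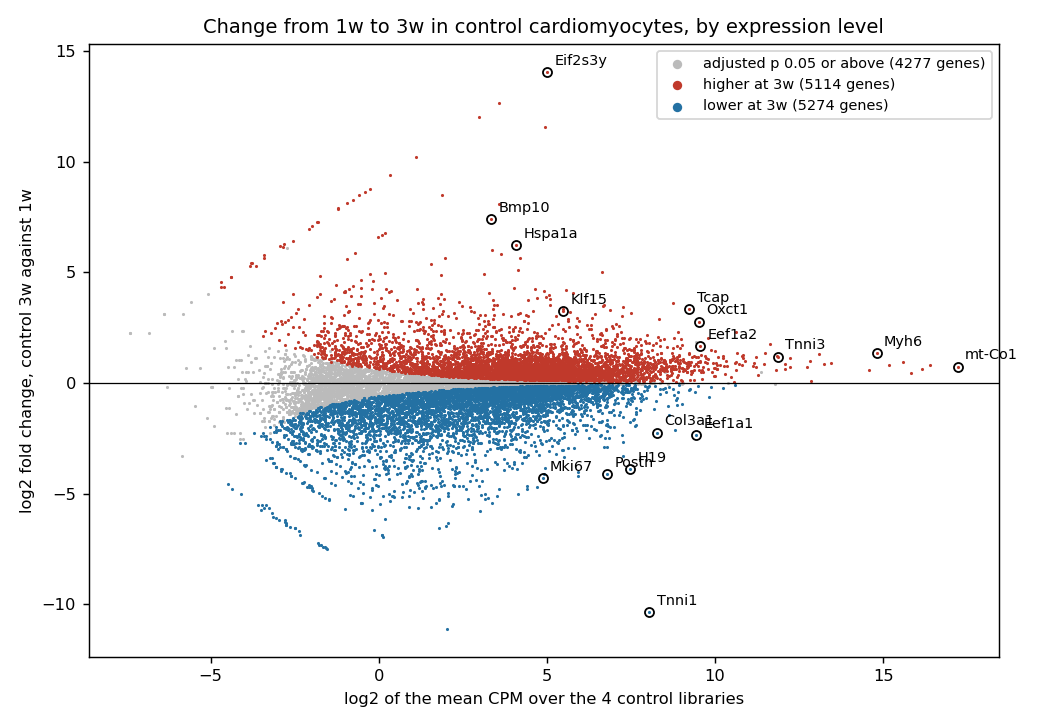
Each point is 1 gene; the x axis gives the log2 of its mean CPM over the 4 control libraries and the y axis its log2 fold change at 3w against 1w, in red where higher and in blue where lower at adjusted p under 0.05. The 4 genes at 0 in every control library are not drawn; Tnni1 lies at -10.36, far below other genes of its level.

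The largest fall among the genes with a mean of at least 10 CPM was that of Tnni1, the slow skeletal troponin I that the fetal heart uses (GRCm38 chr1:135779434-135810989, forward strand). It had 518 and 542 CPM at 1w, then 0.501 and 0.247 at 3w (log2 fold change -10.36 ± 0.076 SE, edgeR adjusted p = 1.1e-66). Tnni3, the adult cardiac troponin I (chr7:4518305-4524229, reverse strand), had 2188 and 2349 CPM at 1w, then 5012 and 5404 at 3w (1.20 ± 0.035 log2 units). SE is the standard error of the log2 fold change, with 2 libraries at each age. Both libraries at 3w had almost no Tnni1 and more Tnni3 than either library at 1w. Per kb of exon, Tnni3 made up 88.1% and 88.3% of the summed level of this pair at 1w and 99.99% and 100% at 3w. In the other well-known exchange, from beta to alpha myosin heavy chain, the alpha chain already prevailed at 1w. Myh6, the alpha chain, made up 99.5% of that pair per kb of exon at 1w and 99.8% at 3w in both libraries, while Myh7, the beta chain, went from 107 and 112 to 123 and 118 CPM (0.13 log2 units but -0.44 with library totals alone and -0.05 averaged over control and KO). Myh6 rose from 16012 and 16367 to 39761 and 42317 CPM (1.34 log2 units).

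Sarcomere genes rose as a list with the fetal isoforms as the exception. A median is given below as the median log2 fold change of the tested members,. Of the whole list, 41 of 46 members passed the count filter, of which 29 rose and 12 fell (median 0.64, with 19 up and 16 down on library totals alone), against -0.03 for all genes. Among fetal and neonatal isoforms, 11 of 12 members passed the count filter, of which 3 rose and 8 fell (median -1.21). Tpm2, the beta tropomyosin, fell with 20.1 and 20.99 CPM at 1w, then 3.24 and 2.83 at 3w (-2.74 log2 units). Among Z-disc and costamere genes, which anchor the thin filaments and tie them to the membrane, 16 of 17 members passed the count filter, of which 13 rose and 3 fell (median 0.87, with 9 up and 4 down on library totals alone). Tcap, the telethonin that caps titin at the Z-disc, had 102 and 114 CPM at 1w, then 1076 and 1120.2 at 3w (log2 fold change 3.34 ± 0.041 SE, edgeR adjusted p = 2.6e-32), and its groups did not overlap. Myot, the Z-disc protein myotilin, changed by 2.29 log2 units. The regulatory light chain Myl2 was abundant at both ages, with 7078 and 7107 CPM at 1w, then 7471 and 7806 at 3w (0.11 log2 units but -0.47 with library totals alone). Myom2, an M-band protein, changed by -0.07 log2 units but 0.25 averaged over control and KO. Its call was lost with only the 4 control libraries (edgeR adjusted p = 0.123) and with DESeq2 (adjusted p = 0.0726). It was also lost without control 1w replicate 2 (-0.057 log2 units) or 3w replicate 1 (-0.035).

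**Figure D2:**
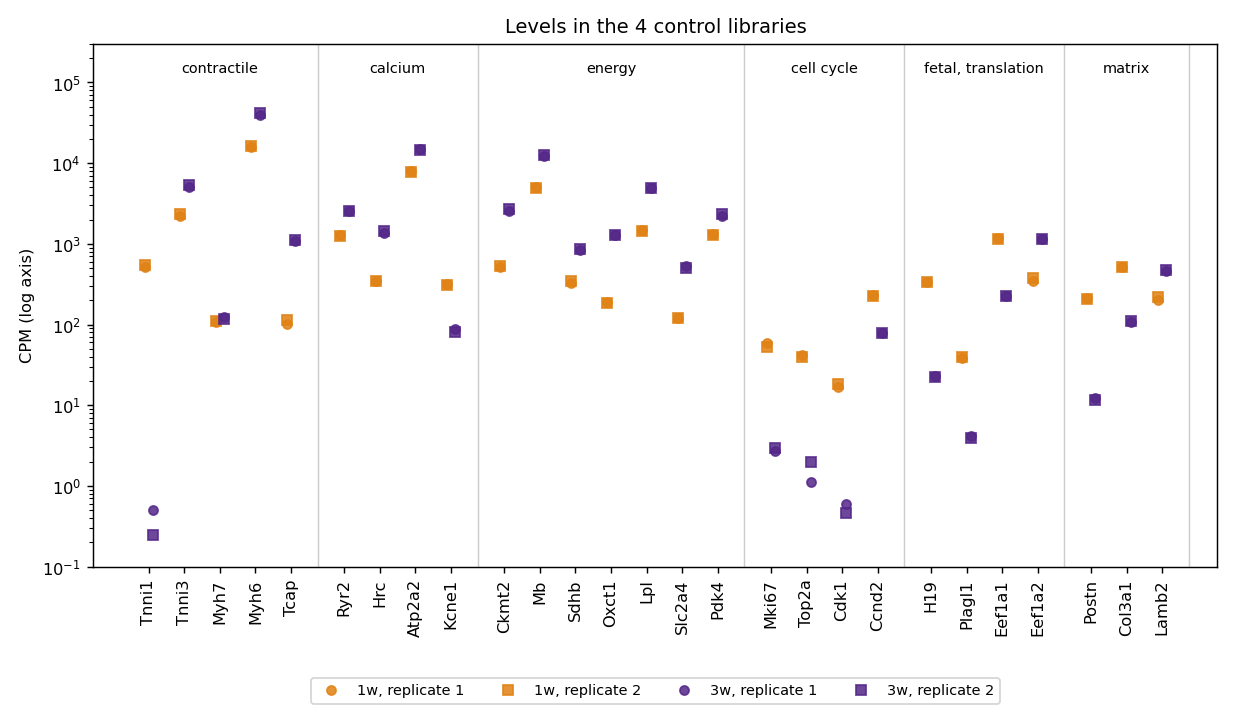
CPM (log axis) of named genes in the 4 control libraries, 1w in orange and 3w in purple, with circles for replicate 1 and squares for replicate 2. Tnni1, Mki67, Top2a, Cdk1, H19 and Postn are lower at 3w in both libraries, Tcap, Hrc, Ckmt2, Oxct1, Lpl and Slc2a4 are higher, and Myh7 moves little.

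Most genes for calcium release and storage rose, and those for calcium entry were divided. For release units and calcium stores, all 12 members passed the count filter, of which 8 rose and 4 fell (median 0.78). For calcium channels, all 7 members passed the count filter, of which 3 rose and 4 fell (median -0.56, with 1 up and 5 down on library totals alone). Ryr2, the calcium release channel of the sarcoplasmic reticulum, had 1284 and 1259 CPM at 1w, then 2543 and 2580.1 at 3w (log2 fold change 1.01 ± 0.026 SE, edgeR adjusted p = 1.7e-42). Hrc, a calcium-binding protein of that store, had 346 and 347 CPM at 1w, then 1381 and 1453 at 3w (2.03 log2 units). Atp2a2, the pump that refills the store, had 7917 and 7746 CPM at 1w, then 14852 and 14511 at 3w (0.91 log2 units). Cacna1c, the pore of the L-type channel, changed by 0.43 log2 units but -0.15 with library totals alone, and Cacna1h, a T-type channel of the fetal heart, by -0.56 log2 units from under 3 CPM. The call of Cacna1h was lost with DESeq2 (adjusted p = 0.0965) and, in edgeR, without control 1w replicate 2 (-0.325 log2 units) or 3w replicate 2 (-0.419). Junctophilin 2 (Jph2), which holds T-tubule and store together, changed by 0.27 log2 units but -0.31 with library totals alone. Bin1, which shapes T-tubule membrane, fell from 7.51 and 7.79 to 1.65 and 1.48 CPM (-2.28 log2 units). In its group of T-tubule and dyad genes, all 8 members passed the count filter, of which 6 rose, 1 fell and 1 did not pass the test (median 0.39 but -0.18 with library totals alone, with 1 up and 4 down on library totals alone).

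Ion channel genes mostly rose with TMM scaling and were evenly divided without it. In that list, 33 of 35 members passed the count filter, of which 25 rose, 7 fell and 1 did not pass the test (median 0.60, with 14 up and 14 down on library totals alone). Kcnv2, a modifier subunit of voltage-gated potassium channels, had 0 and 0.0273 CPM at 1w, then 6.91 and 7.81 at 3w; with 1 count in the 2 libraries at 1w no fold is given. Kcnd3, a subunit of the transient outward current, changed by 2.52 log2 units and Kcnj3, of the acetylcholine-activated current, by 2.61 log2 units. Kcnj2, which sets the resting potential, changed by 0.60 log2 units. Kcne1, the beta subunit of the slow delayed rectifier, fell, with 322 and 312 CPM at 1w, then 87.5 and 81.1 at 3w (log2 fold change -1.91 ± 0.037 SE, edgeR adjusted p = 3.2e-48). Of the pacemaker channels, Hcn2 changed by 1.02 log2 units and Hcn4 by 1.52 log2 units. In the intercalated disc, which joins the cells, 20 of 21 members passed the count filter, of which 8 rose, 9 fell and 3 did not pass the test (median -0.05 but 0.10 averaged over control and KO, with 1 up and 17 down on library totals alone); its gap junction gene Gja1 fell with 583 and 563 CPM at 1w, then 358 and 364 at 3w (-0.67 log2 units). Adrenergic and muscarinic signalling genes were divided, and all 20 members passed the count filter, of which 10 rose, 6 fell and 4 did not pass the test. Their median was 0.21, with a range from -1.82 to 3.27. On library totals alone it was -0.37, with 4 up and 14 down. Of the receptors, the muscarinic receptor Chrm2 rose by 1.83 log2 units and the alpha-1A receptor Adra1a by 3.27 log2 units, and the beta-1 receptor Adrb1 changed by 0.44 log2 units but -0.14 with library totals alone.

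Nuclear genes of the respiratory chain rose with few exceptions, most of them by under 2-fold. Of complex I, 36 of 37 members passed the count filter, of which 36 rose (median 0.85), with a range from 0.25 to 1.32. Of complexes II to V, 40 of 43 members passed the count filter, of which 35 rose, 3 fell and 2 did not pass the test (median 0.71, with 22 up and 6 down on library totals alone). Sdhb, the iron-sulfur subunit of complex II, had 327 and 347 CPM at 1w, then 840.3 and 864 at 3w (log2 fold change 1.34 ± 0.031 SE, edgeR adjusted p = 1.2e-44). Uqcrc1, a core subunit of complex III, changed by 1.18 log2 units, and Atp5b, the catalytic beta subunit of ATP synthase, by 0.73 log2 units. In cytochrome oxidase the muscle form Cox7a1 rose by 1.94 log2 units. It made up 56.6% and 59.4% of its pair with Cox7a2 per kb of exon at 1w and 78.0% and 80.1% at 3w. Cox4i2, an isoform tied to low oxygen, fell by 1.87 on the log2 scale. Its counterpart Cox4i1 was listed at 0 in all 8 libraries, so the shares of that pair are not known. Transcripts made in the mitochondrion moved as most of the nuclear genes did, and all 13 members passed the count filter, of which 9 rose and 4 did not pass the test (median 0.65, with 6 up and 3 down on library totals alone). Among them mt-Co1, a core subunit of cytochrome oxidase, changed by 0.75 log2 units. Genes for the proteins of the mitochondrial ribosome, which translates those transcripts, followed: 71 of 78 members passed the count filter, of which 68 rose and 3 did not pass the test (median 0.64, with 26 up and 15 down on library totals alone).

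Nearly all genes of the TCA cycle and of the breakdown of ketones and branched-chain amino acids rose. For the TCA cycle and pyruvate dehydrogenase, all 24 members passed the count filter, of which 23 rose and 1 fell (median 0.95). For branched-chain and ketone catabolism, 14 of 15 members passed the count filter, of which 14 rose (median 1.49). Oxct1, the enzyme that commits ketone bodies to oxidation, had 190.3 and 184 CPM at 1w, then 1269 and 1297 at 3w (log2 fold change 2.78 ± 0.031 SE, edgeR adjusted p = 1.1e-61). Its 2 ages did not overlap. Bcat2, which takes the first step on branched-chain amino acids, changed by 2.44 log2 units and Ivd, of leucine breakdown, by 2.30 log2 units. Ogdhl, a relative of the E1 subunit of the 2-oxoglutarate dehydrogenase complex, had 16.3 and 17.1 CPM at 1w, then 189 and 186 at 3w (3.48 log2 units). Idh2, the mitochondrial isocitrate dehydrogenase, moved little (0.06 log2 units but -0.52 with library totals alone). Its call was lost in edgeR with only the 4 control libraries (adjusted p = 0.1) and with a minimum count of 30 (0.106). It was also lost with no filter on low counts (0.0747), with the replicate number in the fit (0.0754) and without control 1w replicate 1 (0.054 log2 units).

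Fatty acid genes split by their step. With TMM scaling the beta-oxidation enzymes rose: 14 of 15 members passed the count filter, of which 14 rose (median 0.60, with 5 up and 5 down on library totals alone), with Acadm, the medium-chain dehydrogenase, at 0.89 log2 units. Uptake and activation genes were divided, and all 11 members passed the count filter, of which 5 rose, 5 fell and 1 did not pass the test (median -0.05, with 3 up and 6 down on library totals alone). Lpl, which frees fatty acids from circulating lipoproteins, had 1474 and 1454 CPM at 1w, then 4937 and 4917 at 3w (log2 fold change 1.75 ± 0.025 SE, edgeR adjusted p = 5.2e-56). The transporter Cd36 changed by 0.52 log2 units but -0.06 with library totals alone, and the binding protein Fabp3 did not pass the test (-0.05 log2 units, adjusted p = 0.09). Fabp5 fell by 2.70 and Fabp4, which is also abundant in endothelial cells, by 1.64 on the log2 scale. Cpt1a, the liver form of the enzyme that admits long-chain fatty acids to the mitochondrion, fell with 86.4 and 83.99 CPM at 1w, then 52.02 and 52.1 at 3w (-0.71 log2 units). In its group, the carnitine shuttle, 5 of 6 members passed the count filter, of which 4 rose and 1 fell (median 0.53). On library totals alone the median of the shuttle was -0.045, with 2 up and 1 down. Genes of lipid storage and its regulators were divided: 14 of 15 members passed the count filter, of which 8 rose and 6 fell (median 0.48 but -0.10 with library totals alone). Among those that rose were Pnpla2, the triglyceride lipase (1.97 log2 units), Dgat2, a triglyceride synthase (1.99 log2 units), and Plin4 (1.97 log2 units). Pdk4, which restrains pyruvate oxidation, changed by 0.80 log2 units.

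Genes of glucose use were not lower at 3w as a list. For uptake and glycolysis, 23 of 24 members passed the count filter, of which 17 rose, 4 fell and 2 did not pass the test (median 0.53 but -0.04 with library totals alone, with 10 up and 10 down on library totals alone). For glycogen metabolism, all 17 members passed the count filter, of which 14 rose, 2 fell and 1 did not pass the test (median 0.96, with 10 up and 4 down on library totals alone). Slc2a4, the insulin-responsive glucose transporter, had 122 and 119 CPM at 1w, then 535 and 499 at 3w (log2 fold change 2.10 ± 0.035 SE, edgeR adjusted p = 1.4e-52). Hk2 changed by 1.68 log2 units and Hk1 by 0.25 log2 units but -0.33 with library totals alone, and Hk2 went from 36.6% and 37.2% of this hexokinase pair per kb of exon to 61.0% and 61.3%. Muscle isoforms of the lower steps also rose, with Pgam2 at 1.07 log2 units and Eno3 at 0.90 log2 units, and their ubiquitous counterparts Pgam1 (-0.22 log2 units) and Eno1 (-0.17 log2 units) fell. For Pgam1 the call was lost with DESeq2 (adjusted p = 0.141) and, in edgeR, without control 1w replicate 2 (-0.152 log2 units) or 3w replicate 2 (-0.167). Ckmt2, the mitochondrial creatine kinase, had 521 and 529 CPM at 1w, then 2535 and 2710.4 at 3w (2.32 log2 units). The oxygen store myoglobin (Mb) had 4997 and 4958 CPM at 1w, then 12300.3 and 12766 at 3w (1.33 log2 units). Gatm, which makes the precursor of creatine, fell by 2.32 on the log2 scale.

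**Figure D3:**
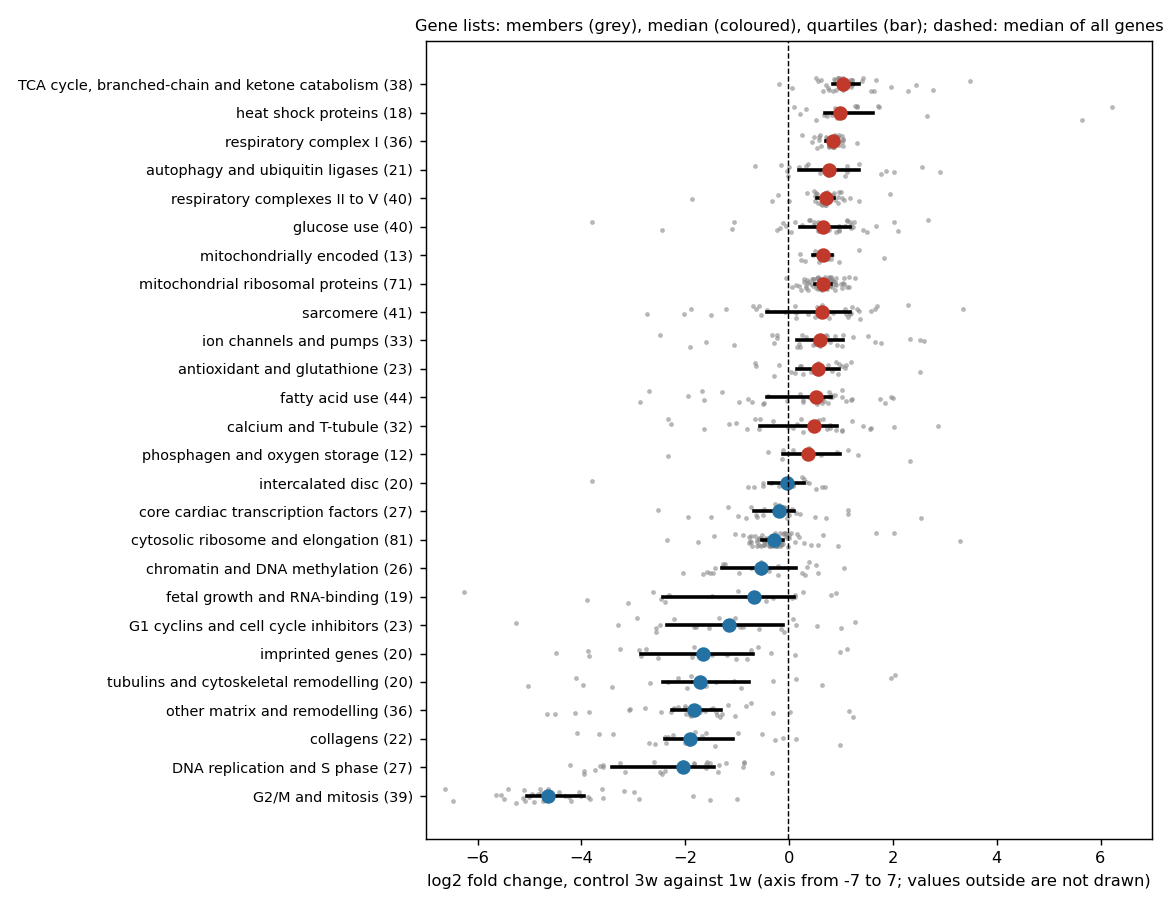
Log2 fold change at 3w against 1w of the tested members of each gene list (grey points), with the median as a coloured point and the quartiles as a bar; the number of tested members stands in brackets and the dashed line is the median of all genes. Medians run from -4.65 for the G2/M and mitosis list to 1.03 for the list of the TCA cycle, branched-chain and ketone catabolism; members beyond 7 in either direction, Tnni1 and Kcnv2, are not drawn.

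The known regulators of this metabolism did not move as 1 block. Ppargc1a, the gene of PGC-1 alpha, fell with 394 and 383 CPM at 1w, then 216 and 226 at 3w (log2 fold change -0.82 ± 0.034 SE, edgeR adjusted p = 3.1e-31), while its muscle-specific partner Perm1 rose by 0.93 log2 units and Esrra, the receptor ERR alpha, by 0.78 log2 units. Thrb, the beta thyroid hormone receptor, changed by 1.87 log2 units, against -0.25 log2 units for Thra. Klf15, a Kruppel factor known for control of cardiac lipid and amino acid use, had 8.23 and 8.58 CPM at 1w, then 82.1 and 79.3 at 3w (log2 fold change 3.26 ± 0.062 SE, edgeR adjusted p = 3.4e-49). Rxrg, a partner of many nuclear receptors, changed by 1.61 log2 units, Esrrg by 0.37 log2 units but -0.20 with library totals alone and Ppara by 0.31 log2 units but -0.27 with library totals alone. Core cardiac transcription factors were divided: 27 of 30 members passed the count filter, of which 6 rose, 14 fell and 7 did not pass the test (median -0.20, with 3 up and 21 down on library totals alone). Tbx20 fell with 312 and 307 CPM at 1w, then 81.8 and 79.6 at 3w (-1.94 log2 units), Gata4 changed by -0.49 log2 units, and the homeobox factor Nkx2-5 did not pass the test (0.06 log2 units, adjusted p = 0.81 but -0.52 with library totals alone).

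Every tested gene of the G2/M and mitosis list fell. In it, 39 of 40 members passed the count filter, of which 39 fell (median -4.65). In the list of DNA replication and S phase, 27 of 30 members passed the count filter, of which 26 fell and 1 did not pass the test (median -2.05). Mki67, the proliferation marker Ki-67, had 59.4 and 52.4 CPM at 1w, then 2.69 and 2.93 at 3w (log2 fold change -4.31 ± 0.084 SE, edgeR adjusted p = 3.2e-47). Cdk1, the kinase that drives entry to mitosis, had 16.9 and 18.1 CPM at 1w, then 0.596 and 0.459 at 3w (-5.01 log2 units). Ccnb1, its cyclin, had 8.06 and 7.87 CPM at 1w, then 0.0715 and 0.106 at 3w (-6.48 log2 units). Cytokinesis genes were among the largest falls of all, with Anln at -5.41 log2 units and Racgap1 at -4.78 log2 units. Mcm6, a subunit of the replicative helicase, changed by -3.96 log2 units and Rrm2, which supplies deoxynucleotides, by -3.58 log2 units. E2f1, the transcription factor of S phase entry, had 12.6 and 11.7 CPM at 1w, then 0.334 and 0.283 at 3w (-5.26 log2 units). In these bulk libraries fewer cells of a type and less RNA per cell cannot be told apart, and any of the cell types in the preparation can be the source of these transcripts.

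Promoters of G2/M genes are known to carry CCAAT boxes and the cell cycle homology region (CHR), and through the CHR their transcription is held down outside the cycle. The 250 bases before the start site of 3 genes that fell are shown because they hold the letters of both elements, at any place within them. Sequences are from RefSeq on GRCm38.p6, 5′ to 3′ along the gene's strand, with CCAAT and the CHR letters TTTGAA, or their reverse complements, in capitals.
Cdk1 chr10:69352913-69353162, strand -: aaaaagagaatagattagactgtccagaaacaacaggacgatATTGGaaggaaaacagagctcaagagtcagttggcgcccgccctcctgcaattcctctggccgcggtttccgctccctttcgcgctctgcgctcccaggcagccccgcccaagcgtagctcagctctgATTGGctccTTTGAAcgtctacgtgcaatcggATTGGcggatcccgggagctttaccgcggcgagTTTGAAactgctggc
Top2a chr11:99024190-99024439, strand -: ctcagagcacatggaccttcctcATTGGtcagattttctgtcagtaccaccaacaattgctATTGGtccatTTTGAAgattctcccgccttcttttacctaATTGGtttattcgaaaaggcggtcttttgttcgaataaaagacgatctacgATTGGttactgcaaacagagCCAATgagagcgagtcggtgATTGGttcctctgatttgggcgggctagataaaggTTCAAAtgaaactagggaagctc
Ccnb2 chr9:70421555-70421804, strand -: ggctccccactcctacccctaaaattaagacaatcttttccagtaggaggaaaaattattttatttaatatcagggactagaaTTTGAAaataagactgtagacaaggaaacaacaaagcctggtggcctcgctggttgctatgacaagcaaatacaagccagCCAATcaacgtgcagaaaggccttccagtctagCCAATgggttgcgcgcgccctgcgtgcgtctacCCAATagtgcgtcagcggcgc
CCAAT stood on either strand in 24 of 32 such windows of the G2/M list (75%), in 63.0% of those of the S phase list and in 33.8% of all 32851 windows in the table. Among the genes tested the share was 34.7%. TTTGAA stood in 31.2% of the G2/M windows, in 11.1% of the S phase windows, in 10.7% of those of the genes tested and in 16.0% of all windows. In windows of mitochondrial ribosomal genes it stood in 17.9%. These matches of letters are a description and do not mark a bound site; of the 39 G2/M genes tested, 31 were found in the table. Top2a, the topoisomerase that untangles sister chromatids, had 42.5 and 39.7 CPM at 1w, then 1.12 and 1.98 at 3w (-4.80 log2 units).

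Most regulators of G1 fell, but not all. Of the list, 23 of 25 members passed the count filter, of which 3 rose, 16 fell and 4 did not pass the test (median -1.17). The cyclin Ccnd1 had 27.2 and 29.5 CPM at 1w, then 5.27 and 4.84 at 3w (-2.49 log2 units). Ccnd2 had 234 and 225 CPM at 1w, then 77.9 and 79.3 at 3w (-1.55 log2 units). Cdkn1a, the inhibitor p21, rose with 42.2 and 42.4 CPM at 1w, then 103 and 101 at 3w (1.27 log2 units), and Cdkn1b, the inhibitor p27, changed by 0.54 log2 units but -0.03 with library totals alone. Among chromatin genes, the Polycomb methyltransferase Ezh2 changed by -1.27 log2 units and its counterpart Ezh1 by 1.07 log2 units, so that Ezh1 went from 52.0% and 58.3% of the pair per kb of exon to 87.1% and 85.4%. The maintenance DNA methyltransferase Dnmt1 changed by -1.30 log2 units. Of the arginine methyltransferases, 8 of 9 members passed the count filter, of which 2 rose, 4 fell and 2 did not pass the test (median -0.23, with 0 up and 8 down on library totals alone); Prmt2 changed by -0.81 log2 units and Prmt1 by -0.46 log2 units.

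Fetal growth genes and imprinted genes were lower at 3w. Among imprinted genes, 20 of 28 members passed the count filter, of which 2 rose, 16 fell and 2 did not pass the test (median -1.65). Among fetal growth and RNA-binding genes, 19 of 23 members passed the count filter, of which 3 rose, 13 fell and 3 did not pass the test (median -0.67). The long RNA H19 had 334 and 334 CPM at 1w, then 22.9 and 22.3 at 3w (log2 fold change -3.89 ± 0.041 SE, edgeR adjusted p = 3.4e-63). Mest, a paternally expressed growth gene, had 61.3 and 53.02 CPM at 1w, then 3.62 and 4.35 at 3w (-3.85 log2 units). Plagl1, a zinc finger factor known to act on other imprinted genes, had 38.03 and 39.8 CPM at 1w, then 4.17 and 3.89 at 3w (-3.27 log2 units). Peg3 changed by -1.02 log2 units, Grb10 by -0.82 log2 units and Cdkn1c by -0.74 log2 units. Igf1 fell by 3.10 and the RNA-binding protein Igf2bp3 by 2.63 on the log2 scale. Igf2 was listed at 0 in all 8 libraries and gives no value.

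Translation genes exchanged isoforms. Eef1a1, the elongation factor of most tissues, had 1178 and 1138 CPM at 1w, then 227 and 224 at 3w (log2 fold change -2.36 ± 0.030 SE, edgeR adjusted p = 1.3e-58). Eef1a2, its counterpart in muscle and nerve, had 345 and 375 CPM at 1w, then 1159.7 and 1154 at 3w (log2 fold change 1.68 ± 0.031 SE, edgeR adjusted p = 2.1e-48). Eef1a2 made up 26.0% and 28.3% of the pair per kb of exon at 1w and 85.9% and 86.1% at 3w; Eef1a1 has many near-identical copies, and how reads were split among them is not given. A like exchange was seen for Rpl3, a protein of the large ribosomal subunit, which had 76.5 and 79.6 CPM at 1w, then 23.2 and 23.1 at 3w (-1.76 log2 units). Its muscle paralogue Rpl3l had 20.5 and 22.6 CPM at 1w, then 212 and 216 at 3w (3.30 log2 units). Among ribosomal proteins, 72 of 80 members passed the count filter, of which 4 rose, 54 fell and 14 did not pass the test (median -0.31). The mitochondrial ribosome moved in the other direction (median 0.64). Which shift was the larger depended on the scaling. With library totals alone the median was -0.89 for ribosomal proteins and 0.07 for the mitochondrial ribosome.

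Matrix genes fell nearly throughout. Of the collagens, all 22 members passed the count filter, of which 1 rose, 20 fell and 1 did not pass the test (median -1.92). Of other matrix and remodelling genes, 36 of 38 members passed the count filter, of which 2 rose, 33 fell and 1 did not pass the test (median -1.83). Postn, a matricellular protein of the neonatal heart, had 215 and 205 CPM at 1w, then 12.4 and 11.5 at 3w (log2 fold change -4.13 ± 0.046 SE, edgeR adjusted p = 1e-61). Col3a1, a fibrillar collagen, had 513 and 519 CPM at 1w, then 108 and 110.1 at 3w (-2.24 log2 units). Fn1, fibronectin, had 201 and 191 CPM at 1w, then 34.4 and 36.4 at 3w (-2.47 log2 units). Lamb2, a laminin chain of the basement membrane around muscle fibres, went against the group, with 199 and 221 CPM at 1w, then 465 and 469 at 3w (1.15 log2 units). The 1 collagen called higher, Col22a1, named after its value was seen, stayed under 1 CPM (0.99 log2 units). Its call was lost with DESeq2 (adjusted p = 0.147) and, in edgeR, without control 1w replicate 1 (adjusted p = 0.144), 1w replicate 2 (0.0604) or 3w replicate 1 (0.128), among other alternatives. Markers of fibroblasts moved with the matrix: 16 of 18 members passed the count filter, of which 2 rose, 13 fell and 1 did not pass the test (median -1.52, with 0 up and 14 down on library totals alone), and their summed level was 853 and 869 CPM at 1w, then 355 and 364 at 3w. Their part in the fall of the matrix genes was not tested.

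Markers of other non-muscle cells were present at both ages. The genes named here are ones with values, and other markers, such as the erythroid gene Alas2, were listed at 0 in all 8 libraries. For endothelial cells, all 20 members passed the count filter, of which 3 rose, 15 fell and 2 did not pass the test (median -1.27), with a summed level of 1371 and 1342 CPM at 1w, then 720.3 and 699.8 at 3w; Pecam1 changed by -1.30 log2 units and Cdh5 by -1.74 log2 units. For smooth muscle and pericytes, all 14 members passed the count filter, of which 1 rose and 13 fell (median -1.66); the 1 member that rose was Des, desmin, which cardiomyocytes also make, with 889 and 933 CPM at 1w, then 2323 and 2349 at 3w. The list summed to 2831 and 2799.9 CPM at 1w, then 3499 and 3479 at 3w. For macrophages, all 19 members passed the count filter, of which 8 rose, 4 fell and 7 did not pass the test (median 0.33 but -0.24 with library totals alone and -0.23 averaged over control and KO, with 7 up and 7 down on library totals alone), with 65.4 and 66.4 CPM at 1w, then 123 and 119 at 3w. Cd163 (3.16 log2 units) and Lyve1 (2.94 log2 units), which mark resident macrophages, and C1qa (1.19 log2 units) rose, and Cd68 did not pass the test (0.33 log2 units, adjusted p = 0.10 but -0.24 with library totals alone and -0.34 averaged over control and KO). Of neutrophil and mast cell markers, 6 of 12 members passed the count filter, and all 6 fell. Their summed level was low, with 17.4 and 17.5 CPM at 1w, then 2.69 and 2.12 at 3w. Of the erythroid list, 6 of 14 members passed the count filter, of which 4 rose, 1 fell and 1 did not pass the test (median 0.77, with 1 up and 1 down on library totals alone). Most of its level is that of Tfrc, a transferrin receptor that other cells also make. The list summed to 373 and 383 CPM at 1w, then 413 and 415 at 3w. The rises of the smooth muscle and erythroid sums are smaller than the step between the TMM factors of 1w and 3w given above. Their direction therefore rests on TMM scaling.

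**Figure D4:**
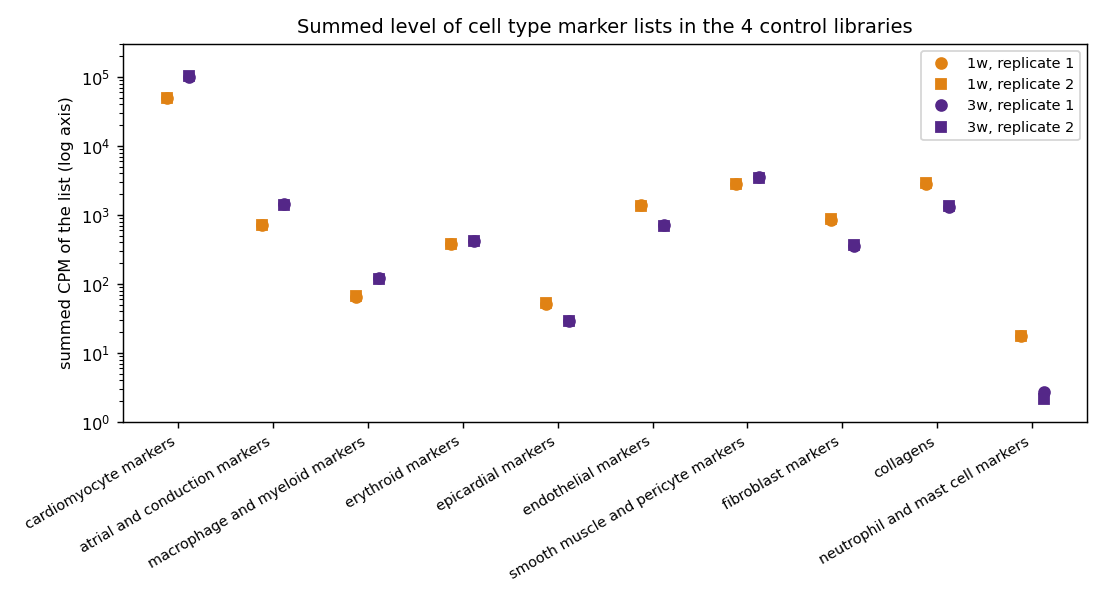
Summed CPM (log axis) of the tested members of cell type marker lists in the 4 control libraries, 1w in orange and 3w in purple. The cardiomyocyte, atrial and macrophage sums are higher at 3w and the fibroblast, endothelial, collagen and neutrophil sums lower, with both replicates close together at each age.

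Cytoskeletal genes of growing cells fell: for tubulins and cytoskeletal remodelling, 20 of 21 members passed the count filter, of which 4 rose and 16 fell (median -1.72). Nes, the intermediate filament nestin, had 113 and 115 CPM at 1w, then 5.96 and 6.43 at 3w (-4.21 log2 units). Tmsb10, a thymosin that binds actin monomers, had 57.5 and 57.6 CPM at 1w, then 3.43 and 3.18 at 3w (-4.11 log2 units). Stmn1, which destabilises microtubules, had 35.5 and 34.7 CPM at 1w, then 5.51 and 5.37 at 3w (-2.68 log2 units). Marcksl1 changed by -5.02 log2 units and Tubb5, a beta tubulin with close paralogues, by -1.98 log2 units.

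Chaperones and protein turnover rose. Of the heat shock list, all 18 members passed the count filter, of which 17 rose and 1 did not pass the test (median 0.98, with 12 up and 3 down on library totals alone). Hspa1a had 0.546 and 0.383 CPM at 1w, then 34.9 and 32.2 at 3w (log2 fold change 6.22 ± 0.13 SE, edgeR adjusted p = 9e-47). Hspa1b, a near-identical copy whose reads cannot be separated with certainty, had 0.6296 and 0.765 CPM at 1w, then 34.1 and 37.3 at 3w (5.64 log2 units). The small heat shock protein Hspb6 changed by 1.74 log2 units and Hspb7 by 0.92 log2 units. Of autophagy and ubiquitin ligase genes, 21 of 22 members passed the count filter, of which 16 rose, 2 fell and 3 did not pass the test (median 0.77, with 12 up and 8 down on library totals alone), among them the ligase Fbxo32 (2.02 log2 units), its fellow Trim63 (1.12 log2 units) and the factor Foxo3 (2.56 log2 units), which is known to drive both. Herpud1, a gene of protein quality control at the endoplasmic reticulum, had 63.5 and 64.3 CPM at 1w, then 805 and 786 at 3w (3.64 log2 units). It had the largest rise of its list, the integrated stress and unfolded protein response, which was divided. In that list 20 of 22 members passed the count filter, of which 11 rose, 5 fell and 4 did not pass the test (median 0.23). On library totals alone the median was -0.35, with 7 up and 11 down. Immediate early genes, which respond to stimuli within minutes, were mixed: all 27 members passed the count filter, of which 11 rose, 10 fell and 6 did not pass the test (median -0.08, with 11 up and 16 down on library totals alone). Fos changed by 2.61 log2 units, Jun by 1.79 log2 units and Egr1 by 2.22 log2 units, but Nr4a1 by -1.97 log2 units and Nr4a3 by -4.72 log2 units. Clock genes were mixed too: 16 of 18 members passed the count filter, of which 10 rose, 4 fell and 2 did not pass the test. Their median was 0.46 but -0.12 with library totals alone, with 6 up and 8 down on library totals alone. Nr1d1 changed by 1.69 log2 units and Dbp by 1.45 log2 units, while Arntl did not pass the test (-0.10 log2 units, adjusted p = 0.41). The time of day of collection is not given in the sources used here.

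Among the 15 largest rises with a mean of at least 10 CPM, the Y-linked genes Eif2s3y (0 and 0 CPM at 1w, 61.1 and 67.2 at 3w), Uty and Ddx3y stood first. Of the rest, Xdh, the xanthine oxidoreductase of purine breakdown, had 1.05 and 0.984 CPM at 1w, then 34.3 and 34.8 at 3w (5.09 log2 units). Csdc2, an RNA-binding cold-shock protein, had 4.99 and 6.48 CPM at 1w, then 197 and 188 at 3w (5.04 log2 units). Art1, an ADP-ribosyltransferase of the muscle cell surface, had 4.66 and 5.19 CPM at 1w, then 88.6 and 93.3 at 3w (4.19 log2 units). Ces1d, a carboxylesterase, changed by 4.26 log2 units, Arrdc2 by 4.29 log2 units, Lrg1 by 4.17 log2 units, Arc by 5.82 log2 units, 2210407C18Rik by 8.10 log2 units and Kcnj14, an inward rectifier potassium channel, by 6.01 log2 units. Among the largest falls, Thbs1, the matrix protein thrombospondin 1, had 40.6 and 40.5 CPM at 1w, then 1.502 and 1.73 at 3w (-4.66 log2 units). Olfml2b had 112 and 116 CPM at 1w, then 7.2 and 6.85 at 3w (-4.02 log2 units).

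The KO libraries gave the same age comparison in hearts that share no library with the controls. Of the 3962 control genes past 2-fold, 3287 (83.0%) were also called in that direction in KO and 115 were called in the opposite one. Directly tested, the change with age differed between control and KO in 5215 of 14665 genes (35.6%). That contrast lies exactly along the presence of Y-linked transcripts, so Carm1 status and Y-linked status cannot be told apart in it. Tnni1, which fell in both, had 321 and 315 CPM at 1w, then 3.601 and 4.22 at 3w in KO, a log2 fold change of -6.34.

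Several genes of the atria went in opposite directions in control and KO. In control, all 18 members passed the count filter, of which 12 rose and 6 fell (median 0.93 but -0.84 averaged over control and KO). The list median was -0.72 in KO, and 12 of the 18 members changed differently there by the test of the difference. Epicardial markers had medians of 0.87 in control and -1.65 in KO (-0.72 averaged over both), with 10 of 11 differing. In control they were divided, with 6 that rose and 5 that fell (4 up and 5 down on library totals alone, with a median of 0.29). Their summed level in control was 51.6 and 53.4 CPM at 1w, then 29.4 and 29.0 at 3w. With a minimum count of 30 the control median was 0.10. Macrophage markers had medians of 0.33 in control and -0.72 in KO, with 16 of 19 differing. The summed atrial level in control was 711 and 708 CPM at 1w, then 1441 and 1402 at 3w. Bmp10, Myl7, Myl4 and Sln, given next, made up only a small part of this sum at both ages. Bmp10, a growth factor made by atrial myocytes, had 0.126 and 0.109 CPM at 1w, then 19.7 and 20.8 at 3w in control (7.40 log2 units but -1.92 averaged over control and KO). The KO libraries had 179.5 and 179.9 CPM at 1w, then 0.0353 and 0.105 at 3w. Myl7, the atrial regulatory light chain, had 7.47 and 8.36 CPM at 1w, then 13.9 and 13.3 at 3w in control (0.77 log2 units but -2.45 averaged over control and KO). In KO it had 92.9 and 96.3 CPM at 1w, then 1.98 and 1.71 at 3w. Myl4, the atrial essential light chain, had 11.1 and 12 CPM at 1w, then 25.8 and 23.7 at 3w in control (1.10 log2 units but -1.43 averaged over control and KO). In KO it had 114 and 114 CPM at 1w, then 7.38 and 7.36 at 3w. Sln, sarcolipin, the atrial inhibitor of the calcium pump, had 0.588 and 0.793 CPM at 1w, then 5.22 and 5.16 at 3w in control (2.86 log2 units but -1.36 averaged over control and KO). The KO libraries had 15.5 and 16.7 CPM at 1w, then 0.459 and 0.209 at 3w. In all these genes the KO libraries at 1w stood above every other library. The part of atrial, epicardial or immune cells in these differences was not tested.

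Among the other genes whose change differed between control and KO, 4 are given as examples. Stbd1, a glycogen-binding protein, had 31.3 and 30.9 CPM at 1w, then 5.25 and 6.36 at 3w in control (-2.44 log2 units but 0.54 averaged over control and KO). In KO it had 1.89 and 1.72 CPM at 1w, then 21.2 and 20.2 at 3w. Ankrd1, a stretch-responsive protein of the sarcomere, had 727 and 729 CPM at 1w, then 165 and 172 at 3w in control (-2.11 log2 units). The KO libraries had 662 and 652 CPM at 1w, then 905 and 925 at 3w. For Ccnd2 the KO libraries had 139 and 141 CPM at 1w, then 131 and 137 at 3w, where the control values given above fell. Egr1 likewise had 152 and 152 CPM at 1w, then 123 and 117 at 3w in KO. The brain natriuretic peptide gene Nppb changed in control by -0.44 log2 units but 0.03 averaged over control and KO, and Nppa, the atrial natriuretic peptide gene, by 1.58 log2 units.

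**Figure D5:**
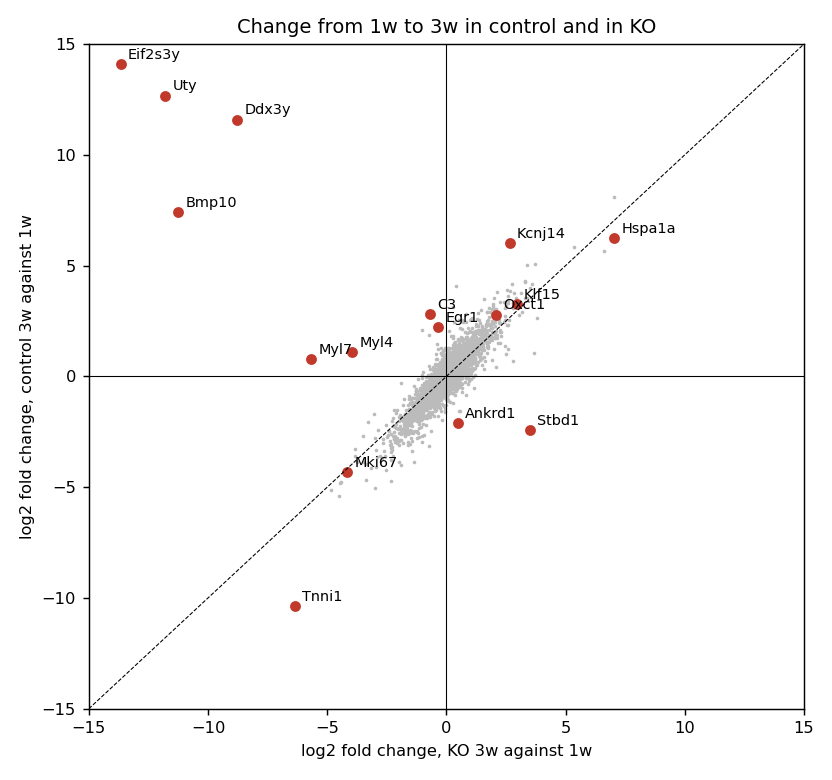
Log2 fold change at 3w against 1w in KO (x axis) and in control (y axis) for genes with a mean of at least 10 CPM over the control libraries; the dashed line marks equal change and red points are genes named in the text or C3, a complement gene. Most genes lie near the line, while Bmp10, Myl7, Myl4, Stbd1, Ankrd1 and the Y-linked Eif2s3y, Uty and Ddx3y lie in the quadrants of opposite change.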

How the data were processed

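RNA of isolated mouse cardiomyocytes was sequenced in 8 libraries (SMARTrHT and NEXTERA XT, per the labels' protocols). The authors deposited 1 table of raw counts per gene; the submitters' processing notes name FastQC, MultiQC, HISAT2, featureCounts, DESeq2 and the mm10 build, without their settings. GENCODE M21 supplied exon lengths and names for 54723 IDs. Counts of 20818285 to 53671626 per library were tested with edgeR 4.0.16 (R 4.3.3): genes were kept by filterByExpr (min.count 10, min.total.count 15), libraries scaled by TMM, and the robust quasi-likelihood F-test in 1 fit of all 8 libraries in 4 groups, so that the 4 control libraries shared their spread with KO. A standard error is the log2 fold change divided by the square root of F. Genes were called at an adjusted p under 0.05. On simulated data for this comparison with 14665 genes, the test recovered 46% of changes of 1.25-fold, 78% of 2-fold and 92% of 4-fold, and 6.08% of calls were of unchanged genes. Only 50 genes were changed at each fold, and the noise was drawn from the spread fitted over all 8 libraries. Far more genes were called in the data, so these shares need not hold there. Named genes were the 15 largest rises and falls with a mean of at least 10 CPM, key genes of each list, and up to 4 members per list with the largest change; Des was named after its values were seen. The members and lists were chosen with earlier results of these data known. Of 1275 list entries, 111 did not pass the filter or had no ID. Alternatives were DESeq2 1.42.0, other size factors, filters and fits, and leaving out each control library. Same-numbered libraries did not deviate together (correlations from -0.022 to 0.008 across genes), so the numbers were not used as pairs.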

Additional observations from a re-analysis of the deposited data

Results flagged for a closer look

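The change from 1w to 3w differed between control and KO in 5215 genes by the test of that difference. Among the genes named above, the change in control less the change in KO, on the log2 scale, was -4.02 for Tnni1, 18.65 for Bmp10, 6.45 for Myl7, 5.05 for Myl4, 8.44 for Sln, -5.95 for Stbd1, -2.59 for Ankrd1, -1.48 for Ccnd2 and 2.55 for Egr1. Each passed an adjusted p under 0.05 (edgeR's quasi-likelihood test). Only the libraries labelled control 3w and KO 1w held Y-linked transcripts above a few counts, so Carm1 status and Y-linked status cannot be told apart in these differences.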

How the results depend on the processing

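Beside the 5114 genes called higher and 5274 called lower, library totals alone gave 1917 and 9645 (610 and 4645 past 2-fold), and a test against a 1.5-fold change gave 2108 and 2831. DESeq2 gave 4563 and 4362, and found 3351 genes to change differently in control and KO, in place of 5215. Leaving out 1 control library at a time, with the lone sample assumed to vary like the other groups, gave 4712 to 5096 genes higher and 4706 to 4951 lower, 1411 to 1497 and 2403 to 2519 past 2-fold, and, with KO libraries left out as well, 4355 to 4906 that differed from KO. The replicate block gave 5064 and 5220; the shared numbers did not pair the libraries. With the other size factors, filters and fits listed in the methods, these counts stayed within 1.5 times the value given. Of 162 genes named, library totals turned the log2 fold change of a called gene or the median of a list to -0.44 for Myh7, -0.47 for Myl2, -0.15 for Cacna1c, -0.31 for Jph2, -0.14 for Adrb1, -0.52 for Idh2, -0.061 for Cd36, -0.33 for Hk1, -0.20 for Esrrg, -0.27 for Ppara, -0.032 for Cdkn1b, -0.24 for the list of macrophage and myeloid markers, -0.18 for the list of calcium and T-tubule, T-tubule and dyad structure, -0.099 for the list of fatty acid use, storage and regulators and -0.043 for the list of glucose use, uptake and glycolysis. Averaging age over control and KO, which balances Y-linked transcripts, gave -0.052 for Myh7, 0.25 for Myom2, -0.34 for Cd68, -1.92 for Bmp10, -2.45 for Myl7, -1.43 for Myl4, -1.36 for Sln, 0.54 for Stbd1, 0.031 for Nppb, 0.10 for the list of intercalated disc, -0.23 for the list of macrophage and myeloid markers and -0.84 for the list of atrial and conduction markers. Leaving out each control library in turn moved the median of fatty acid uptake and activation genes between -0.063 and 0.001, the latter without CTRL 3w replicate 1. Library totals also turned the list medians of integrated stress and unfolded protein response (-0.35) and of adrenergic and muscarinic signalling (-0.37). The same held for the circadian clock (-0.12) and the carnitine shuttle (-0.045). The cause of these changes was not tested. Depth limits genes of low CPM, since the 1w libraries held the fewest counts among the controls.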

Other observations

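Some genes outside the lists, picked after their values were seen because they rose, are given as values only. Fkbp5, a co-chaperone of the glucocorticoid receptor, had 4.11 and 4.86 CPM at 1w, then 62.9 and 63.5 at 3w (3.79 log2 units), and Zbtb16, a zinc finger factor, had 16.5 and 16.04 CPM at 1w, then 190.1 and 190.0 at 3w (3.55 log2 units). The metallothioneins changed by 3.03 log2 units (Mt1) and 3.77 log2 units (Mt2). Ddit4, an inhibitor of mTOR signalling, changed by 3.22 log2 units and Sesn1 by 3.43 log2 units. Pik3r1, the regulatory subunit of PI3-kinase, had 37.2 and 34.8 CPM at 1w, then 321 and 330.1 at 3w (3.18 log2 units), and Pik3ip1, an inhibitor of that kinase, changed by 3.02 log2 units.

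Genes on the X chromosome were slightly lower at 3w than others, with a median log2 fold change of -0.225 over 515 genes, against -0.025 over all 14665. In KO the corresponding medians were -0.158 and -0.020.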
